A study of Mus musculus with 8 samples.

Results

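Pancreatic lymph nodes of Deaf1 knockout mice aged 4 weeks were compared with those of wild-type littermates on the 2 arrays of that age, out of 8 in the series. The arrays were chosen by their labels, which give the age and the replicate. On each, RNA from the node of 1 knockout mouse ("Deaf1-Knock out", BALB/c) was labelled with Cy5, and RNA from a pool of 2 wild-type BALB/c mice of the same age with Cy3. The labels call the arrays biological replicates, give no treatment and no sex, and do not say which part of Deaf1 was deleted. Nor do they say whether both 4-week arrays share 1 wild-type pool. If they do, both comparisons are not independent of each other. The other arrays, used here only for comparison, set 3 knockouts of 12 weeks and 3 of 30 weeks against pools of 3 wild-type mice of their own age. Of 18410 genes tested, 14116 had a ratio of the same sign on both 4-week arrays, 7761 of them higher in the knockouts and 6355 lower.

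The pancreatic lymph node drains the pancreas and is a place where T cells meet antigens of that organ. Its stromal cells, among them fibroblastic reticular cells and lymphatic endothelial cells, build its scaffold, guide lymphocytes with chemokines and can present self-antigens to T cells. Deaf1 encodes a transcription factor with a SAND domain, as does Aire, the factor that drives self-antigen expression in the thymus. DEAF1 protein is known to bind DNA with TTCG half-sites, and the study set out to compare gene expression in this node with and without the gene.

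Well above background were 51.6% and 37.2% of probes in the wild-type channel of replicates 1 and 2, and 54.9% and 46.8% in the knockout channel, below the 58.7% to 71.4% of the other ages in either channel. No spot was saturated. Markers of T cells (5 of 5) and of high endothelial venules (3 of 3), the vessels through which lymphocytes enter a node, lay above background in all 4 channels, as did those of B cells (5 of 5). Those of reticular stroma (3 or 4 of the 4 on the array) and lymphatic endothelium (2 or 3 of 3) did so in part on replicate 2. Markers of fat cells (4 of 4), pancreatic acinar cells (5 of 5) and red-cell precursors (3 of 3) were above background in every channel as well, while those of islets (0 of 3) were not. Xist was above background in all 4 channels and 4 genes of the Y chromosome in 0. Both lay on 1 slide and were read with a scanner and software release used for neither of the other ages, so age, pool, slide, scanner and software cannot be told apart. The dyes were never swapped, so a dye bias of a probe is part of each ratio tested against 0 and was not estimated. Single wild-type mice were not hybridised, so the spread among control mice enters no test. The number of arrays limits the precision.

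Values below are log2 ratios, knockout over wild type, so that 1 is a doubling, with the standard error of the fit. Called means a Benjamini-Hochberg adjusted p under 0.05 in a limma fit over all 8 arrays, tested on the mean of both 4-week arrays against 0, two-sided. At 4 weeks 2821 genes were called higher (15.3% of those tested) and 1358 lower (7.38%), together 22.7%. Of the called genes, 4179 of 4179 had the same sign on both arrays, which follows in part from the test itself. The changes were mostly small, with a median size of 0.50 on the log2 scale, and a ratio over 1 in size was reached by 213 genes called higher (1.16%) and 44 called lower (0.239%). Replicate 1 showed the wider spread, with an SD of its ratios of 0.43 against 0.29 on replicate 2. Across genes, the ratios of both arrays had a Pearson's r of 0.81 and a Spearman's rho of 0.77. Genes are not independent replicates, and they share the arrays' dye and probe properties and possibly the wild-type pool. A ratio over 1 in size was seen on replicate 1 alone in 415 genes and on replicate 2 alone in 33.

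**Figure D1:**
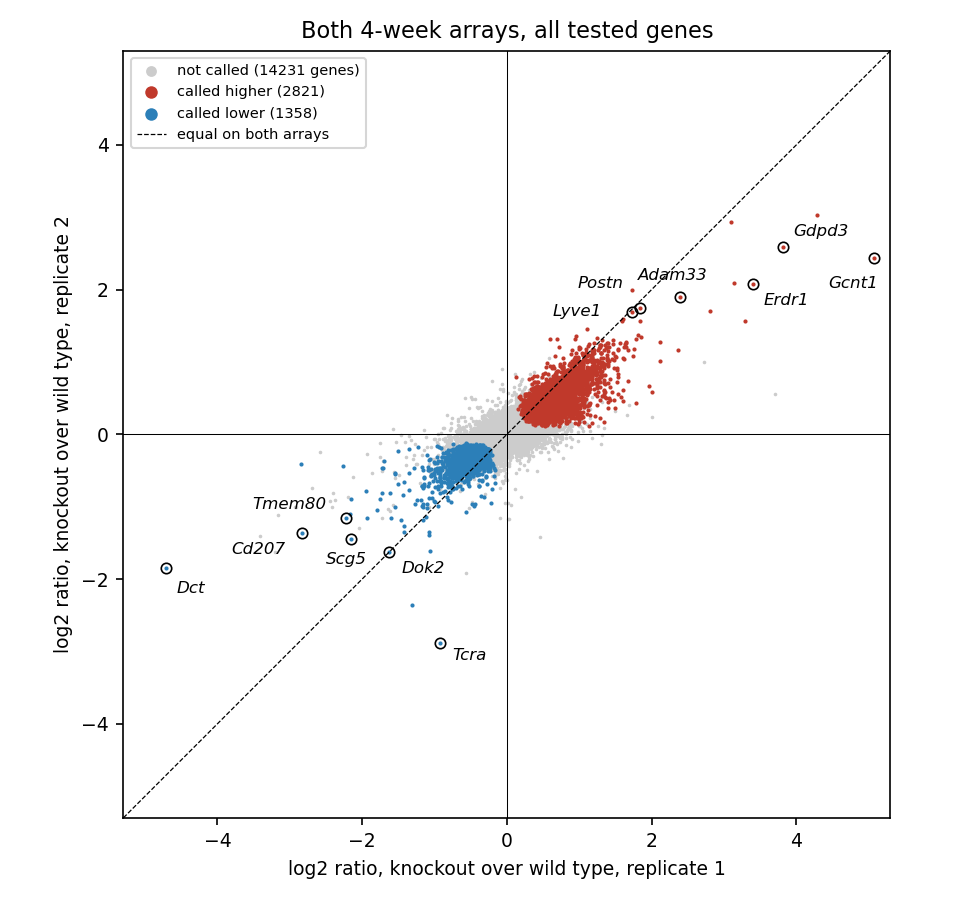
Log2 ratio of knockout over wild type on replicate 1 (horizontal) and replicate 2 (vertical) of 4 weeks for the tested genes, grey where not called, red where called higher (2821) and blue where called lower (1358). Most extreme genes, such as Gcnt1 (5.07 and 2.43) and Dct (−4.71 and −1.85), lie closer to 0 on replicate 2 than on replicate 1, while Dok2 (−1.63 and −1.63) lies on the dashed line of equality.

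Leaving out 1 of the 4-week arrays leaves the ratio of the other as the 4-week value, with its spread taken from the other ages, so the 2 array values given for a gene are also its values without the partner array. Without replicate 1 the calls fell to 499, of which 493 were among those of both arrays, and without replicate 2 to 2919, with 2544 among them. Which genes lost their call in this way is said beside them. Each gene is represented by its brightest probe, and further probes often gave less. Among the called genes described here, 42 had 1 or more further probes above background at 4 weeks. The mean of these had the same sign in 41, but was less than 0.5 of the printed ratio in 24 (57.1%). Over all called genes the sign was shared in 1437 of 1615 (89%), and 867 (53.7%) lay under that share. A ratio is therefore that of its probe, and the cause was not tested. Values of further probes are given beside some, not all, of the genes where they were much smaller. Among those without such a value below, a further probe above background had a mean of 0.29 for Srp54a and −0.28 for Cnot3. It had 0.28 for Lilra6, −0.13 for Thy1, 0.19 for C1galt1 and −0.25 for Cd8b1. Where arrays were only centred on their median, with no loess curve, the median of all genes was 0.49 in place of 0.02, and 96% of calls were rises, against 67.5% here, 55.5% with the scanner's processed signals and 48.6% with plain background subtraction. Directions are therefore relative to the bulk of genes. Of the called falls described below, those of Tmem80, Ercc4, Dct, Tcra, Scg5, Slc7a5, Alb and Ahsg kept their call with median centring alone, and the others lost it.

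The targeted gene gave little difference. The brightest Deaf1 probe, on chromosome 7 at 141152927 to 141152986 (mm8), had ratios of −0.22 and −0.12 (mean −0.17 ± 0.07, adjusted p = 0.127), and a second, at 141166259 to 141172439, of −0.29 and −0.10, with its wild-type channel above background on 1 array. The remaining one was not well above background. The brightest probe had 0.32 to 0.35 at 12 weeks, above the 4-week arrays (difference −0.51, adjusted p = 0.0202). With the deleted part unknown, these probes do not check the genotype. Aire had ratios of −0.19 and −0.32 (adjusted p = 0.193), and with median centring alone the means of Deaf1 and Aire were 0.39 and 0.38, below the median of all genes. Some other genes of the SAND family were called: Sp100, a nuclear body protein, had 0.73 and 0.75 (mean 0.74 ± 0.09, adjusted p = 0.0015), and its relative Sp110 had 0.80 and 0.60 (mean 0.70 ± 0.12). Of 9 genes tested from the list of SAND-domain factors, 3 were higher (33.3%, against 15.3% of all genes), 1 lower (11.1%, against 7.38%) and 5 not called, with a median of −0.02. The list also holds Nucks1, a chromatin protein without a SAND domain, so its shares are not those of the family alone. The calls of Sp110 and Nucks1 (0.60 and 0.58) were lost without replicate 1. The lower one was Ski, a repressor of TGF-beta signalling, with −0.50 and −0.40, whose call was lost without either 4-week array and whose mean was 0.42 with median centring alone.

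A ratio beyond 0.9 in size, with 1 sign on each of the 8 arrays, was found in 4 genes. Gdpd3, an enzyme of phospholipid breakdown, was higher. Tmem80, a membrane protein, Ercc4, a subunit of a DNA repair nuclease, and Eif4g3, a scaffold of translation initiation, were lower. With −0.95 and −0.99 at 4 weeks, Eif4g3 would not pass a size of 1. The upstream sequences of these 4 genes are shown so that their differences can be set beside the known half-site. Each line gives the 250 bases before the first start listed by RefSeq (GRCm38.p6), 5′ to 3′ on the gene's strand, with TTCG and its reverse complement CGAA in capitals.
Tmem80: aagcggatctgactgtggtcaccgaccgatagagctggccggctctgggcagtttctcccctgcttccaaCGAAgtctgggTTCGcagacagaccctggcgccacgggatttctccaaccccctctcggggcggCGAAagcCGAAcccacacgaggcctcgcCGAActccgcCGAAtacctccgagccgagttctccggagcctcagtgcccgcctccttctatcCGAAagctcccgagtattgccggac
Eif4g3: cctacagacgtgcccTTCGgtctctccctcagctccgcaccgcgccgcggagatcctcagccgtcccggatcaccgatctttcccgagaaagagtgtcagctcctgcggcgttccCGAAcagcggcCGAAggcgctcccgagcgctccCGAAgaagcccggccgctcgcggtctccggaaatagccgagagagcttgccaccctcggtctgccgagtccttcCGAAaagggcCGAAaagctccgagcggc
Ercc4: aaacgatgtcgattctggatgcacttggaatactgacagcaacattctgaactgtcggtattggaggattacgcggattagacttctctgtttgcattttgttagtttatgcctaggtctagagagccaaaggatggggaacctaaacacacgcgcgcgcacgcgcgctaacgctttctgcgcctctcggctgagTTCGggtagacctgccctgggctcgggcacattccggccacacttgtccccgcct
Gdpd3: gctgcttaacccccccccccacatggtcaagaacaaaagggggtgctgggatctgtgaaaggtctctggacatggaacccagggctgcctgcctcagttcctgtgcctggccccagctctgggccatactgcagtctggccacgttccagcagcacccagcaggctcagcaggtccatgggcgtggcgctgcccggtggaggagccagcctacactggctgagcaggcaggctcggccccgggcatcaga
The windows lie at chr7:141327880-141328129 (Tmem80), chr4:137993205-137993454 (Eif4g3), chr16:13109486-13109735 (Ercc4) and chr7:126766164-126766413 (Gdpd3), on the plus strand in each case. The Tmem80 window held 7 matches and that of Eif4g3 6, against 1 for Ercc4 and 0 for Gdpd3. Over the 27025 promoters of the table, searched the same way on both strands, 38.6% held at least 1 match and 0.0666% held 6 or more. The count of 6 is that of Eif4g3 itself, so this share is no test of the genes shown. A match in letters is not a binding site, and the search takes no account of base composition. One of the listed starts of Deaf1, on the other strand, lies 405 bases from that of Tmem80, so both genes share this stretch of DNA.

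None of these 4 genes was called different between 4 and 12 weeks. Gdpd3 had 3.81 and 2.59 (mean 3.20 ± 0.24, adjusted p = 0.000415), with its wild-type channel above background on 1 array only. At 12 weeks it had 3.49 to 3.98, and at 30 weeks 1.12 to 1.23, which was lower than at 4 weeks (difference 2.04 ± 0.31, adjusted p = 0.00467). Ercc4 had −1.60 and −1.15 (mean −1.38 ± 0.11), within or next to its range at the other ages (−1.51 to −1.03). Its second probe, not above background at 4 weeks, had −0.11 and −0.07. Eif4g3 had −0.95 and −0.99 (mean −0.97 ± 0.09, adjusted p = 0.000517), less far from 0 than any of the arrays of the other ages (−1.68 to −1.27). Against 30 weeks this difference was called (0.52, adjusted p = 0.018), against 12 weeks it was not (0.38, adjusted p = 0.0883). Its other probe showed the same order, with −1.13 and −1.01 at 4 weeks and −1.91 to −1.44 later. With median centring alone the 4-week mean of Eif4g3 was −0.07, against 0.49 for all genes there, and its call was lost. Tmem80 had −2.22 and −1.15 (mean −1.69 ± 0.24, adjusted p = 0.00243), and its call was lost without replicate 1.

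Tmem80 stood out among the genes near Deaf1 on chromosome 7. Of 22 neighbours tested, 4 were lower (18.2%, against 7.38% of all genes), 0 higher and 18 not called, and 16 had the same negative sign on both arrays against 1 positive. Besides Tmem80 these were the tetraspanin Cd151 (−0.51 and −0.37), the GTPase Hras (−0.48 and −0.30) and the RNA polymerase subunit Polr2l (−0.39 and −0.22). The median of the list was −0.23 against 0.02 for all genes, but 0.54 with median centring alone, near the 0.49 of all genes there. The calls of Cd151, Hras and Polr2l were lost without replicate 1, that of Polr2l also without replicate 2 of 4 weeks or replicates 1 or 3 of 30 weeks, and these 3 genes had positive means with median centring alone. Without replicate 1, 0 of the 22 were called.

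Other genes of the cap-binding complex eIF4F, which brings mRNA to the ribosome, and of its regulators went both ways. The cap-binding protein Eif4e had 0.97 and 0.70 (mean 0.83 ± 0.14), the poly(A)-binding protein Pabpc1 0.95 and 0.60 (mean 0.78 ± 0.13; 0.14 and −0.03 with another probe) and the relative of the scaffold Eif4g2 0.53 and 0.49 (mean 0.51 ± 0.08). Besides Eif4g3, the cap-binding relative Eif4e2 was lower, with −0.31 and −0.26 (0.60 with median centring alone). Of 17 genes of this list 5 were higher (29.4%, against 15.3% of all genes) and 2 lower (11.8%, against 7.38%), 7 had a positive and 7 a negative sign on both arrays, and the median of 0.02 equalled that of all genes. The call of Eif4e2 and these 3 rises were lost without replicate 1, that of Eif4e2 also without replicate 2 or replicates 1 or 3 of 30 weeks, and without replicate 1 the list held 0 rises and 1 fall.

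The highest rises were in genes of varied function. The brightest probe of Gcnt1, which adds branches to O-linked sugars, had ratios of 5.07 and 2.43 and was not above background in the pool. Both further Gcnt1 probes were above background and showed no such rise, with means of 0.06 and 0.01. The brightest probe of the metalloprotease Adam33, on chromosome 2, likewise dim in the pool, had 2.39 and 1.90 (mean 2.15 ± 0.13, adjusted p = 0.000415), while another, above background, had 0.41 and 0.13. The probes of neither gene give a common fold. Erdr1 had 3.40 and 2.08, and the antiprotease Slpi, known from epithelia and myeloid cells, 3.14 and 2.09 (mean 2.62 ± 0.50). Selenop, a selenium carrier, had 2.11 and 1.28, the chromosome-silencing factor Smchd1 1.61 and 1.59, the lysosomal protein Tmem106b 1.78 and 1.32, and Chrdl1, an antagonist of bone morphogenetic proteins, 1.63 and 1.25. Further probes above background had means of 0.64 and 0.18 for Smchd1, 0.32 and 0.43 for Tmem106b and 0.26 for Chrdl1, and that of Erdr1 had 1.55. The further Slpi probe, not above background, had 0.24 and 0.28. The nucleolar chaperone Npm1 had 1.76 and 1.18, with gene copies elsewhere in the genome that the probe may not tell apart. Retnla, a product of alternatively activated macrophages, had 2.11 and 1.01. Of these, Gcnt1, Slpi and Retnla lost their call without replicate 1.

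Gcnt1 belongs to a list of enzymes that build the sugars of selectin ligands. Of 23 tested, 6 were higher (26.1%, against 15.3% of all genes) and 1 lower (4.35%, against 7.38%), with a median of 0.04. C1galt1, which makes the core that Gcnt1 branches, had 0.77 and 0.52 (mean 0.65 ± 0.09, adjusted p = 0.00184), and the sugar-extending enzyme B3gnt5 had 0.91 and 0.62 (mean 0.77 ± 0.15). All of these calls were lost without replicate 1, where the list held 0 rises and 0 falls.

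A minority of stromal genes rose, among them several of the matrix. Postn, the matrix protein periostin, had 1.84 and 1.74 (mean 1.79 ± 0.09, adjusted p = 0.000415), on chromosome 3 at 54478490 to 54478549. The matrix proteoglycans Lum, Dcn and Ogn had 1.46 and 1.25, 1.61 and 1.05, and 1.52 and 0.72, with Ogn above background in the pool on 1 array only. Further probes had 0.17 and 0.08 for Dcn, where it was not above background, and 0.33 and 0.11 for Fbn1, where it was. Fbn1, the main protein of microfibrils, had 1.02 and 0.85 (mean 0.93 ± 0.11), and the collagen Col14a1 0.86 and 0.73 (mean 0.79 ± 0.13). Of 30 matrix genes tested 8 were higher (26.7%, against 15.3% of all genes), 1 lower and 21 not called, with a median of 0.22. Of 23 genes of reticular stroma and fibroblasts 6 were higher, 1 lower and 16 not called, with a median of 0.12. There 12 genes had a positive and 9 a negative sign on both arrays. The chemokine Ccl19 of reticular cells and the receptor Pdgfrb, named after their values were seen, had means of −0.39 and −0.25 (0.54 and 0.64 with median centring alone) and were not called. Among the rises were the growth factor receptor Pdgfra (1.08 and 0.57, mean 0.82 ± 0.15) and the chemokine Cxcl12, which retains lymphocytes in their niches (0.78 and 0.44, mean 0.61 ± 0.10). The list's fall was in Thy1 (−0.93 and −0.47), which T cells share. Col14a1, Pdgfra, Cxcl12 and Thy1 lost their call without replicate 1. Without that array 3 matrix genes (Postn, Ogn and Fbn1) and 2 reticular genes (Lum and Dcn) were called higher, and without replicate 2 or replicates 1 or 3 of 30 weeks 5 matrix genes.

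Part of the genes of lymphatic endothelium, which lines the sinuses of the node, rose. Lyve1, a hyaluronan receptor, had 1.73 and 1.69 (mean 1.71 ± 0.21, adjusted p = 0.00139), on chromosome 7 at 110641838 to 110641897, and another probe above background had 0.67 and 0.13. Clca3a1 had 1.18 and 1.06 (mean 1.12 ± 0.16), the secreted protein Mmrn1 1.15 and 0.81 (mean 0.98 ± 0.16), and Prox1, the transcription factor that specifies lymphatic identity, 0.70 and 0.76 (mean 0.73 ± 0.12). The growth factor receptor Flt4, named after its values were seen, had 0.04 and 0.13 and was not called. Of 12 genes tested 6 were higher (50%, against 15.3% of all genes), 0 lower and 6 not called, with a median of 0.47 that lay between 0.28 and 0.73 above that of all genes under the scalings tried and without either 4-week array. Without replicate 1 only Lyve1 kept its call; the call of Prox1 was also lost with the mean of its probes, 1 of whose 2 other probes had the opposite sign. Enpp2, the enzyme autotaxin that high endothelial venules secrete, had nearly equal ratios of 1.19 and 1.18 (mean 1.18 ± 0.12, adjusted p = 0.000673). Blood and high endothelium as a list differed less: of 17 genes 2 were higher and 1 lower, with a median of 0.08. In whole nodes, more cells of a type and more RNA per cell cannot be told apart.

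**Figure D2:**
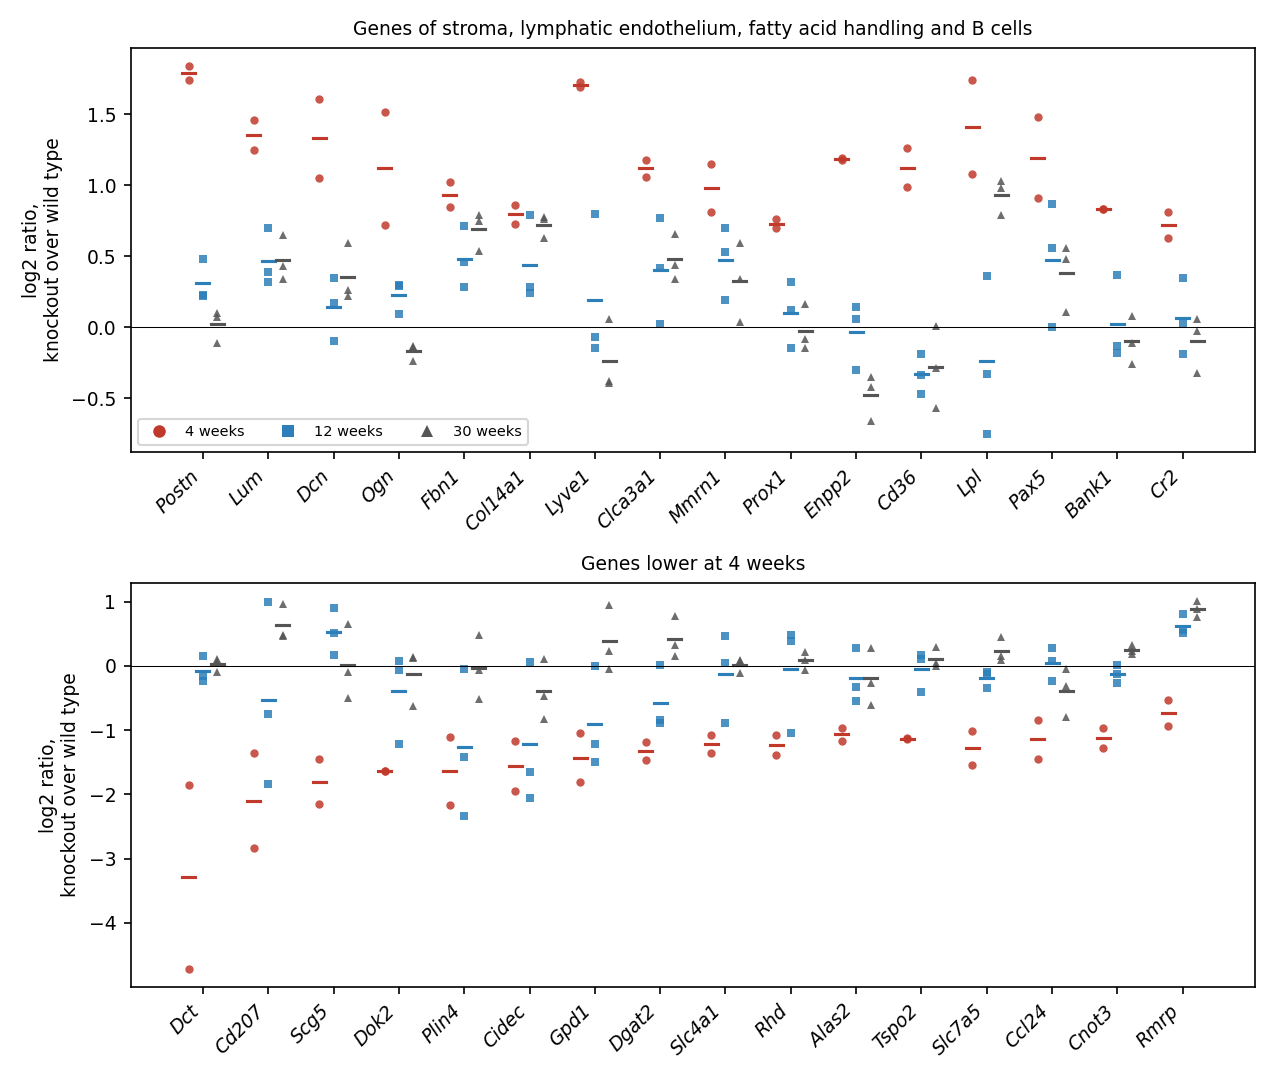
Log2 ratio of knockout over wild type for 16 genes of stroma, lymphatic endothelium, fatty acid handling and B cells (upper panel) and 16 genes lower at 4 weeks (lower panel), with a point per array and a bar at the mean of each age (4 weeks red circles, 12 weeks blue squares, 30 weeks grey triangles). For Postn both 4-week arrays (1.84 and 1.74) lie above every array of the other ages (−0.11 to 0.48), and for Dct both (−4.71 and −1.85) lie below them (−0.23 to 0.15).

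Several of these stromal genes also differed between ages. Postn at 4 weeks exceeded 12 weeks by 1.48 ± 0.12 (adjusted p = 0.0048) and 30 weeks by 1.77 (adjusted p = 0.000816). Lyve1 exceeded them by 1.52 (adjusted p = 0.0197) and 1.95 (adjusted p = 0.00372), Enpp2 by 1.22 and 1.66, Dcn by 1.19 and 0.97, Ogn by 0.89 and 1.29, and Lum by 0.88 and 0.88, all called in both contrasts. Fbn1, Col14a1, Clca3a1 and Mmrn1 were not called in either contrast. Of all genes tested, 1285 were called in the contrast with 12 weeks, but only 1 without replicate 1 of 4 weeks, 630 without replicate 2 and 51 with median centring alone. The 3466 calls against 30 weeks fell to 608 and 1999 without these arrays. Leaving out replicate 3 of 12 weeks or replicates 1 or 3 of 30 weeks gave 492, 589 and 547 calls against 12 weeks, and without those of 30 weeks 1907 and 1576 were left against 30 weeks. In both contrasts at once, 791 genes (4.3%) were higher at 4 weeks than at both other ages and 192 (1.04%) lower. Over the matrix list 5 genes were higher than at 12 weeks and 8 than at 30 weeks, against 5.61% and 11.7% of all genes, and 0 were lower than at either age, against 1.37% and 7.09%.

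Of 24 T cell genes 9 were lower (37.5%, against 7.38% of all genes), 2 higher and 13 not called. The median of the list was −0.27, which turned to 0.57 with median centring alone, 0.08 above the median of all genes there. Besides Thy1 the falls included Cd8b1, a chain of the CD8 co-receptor (−0.61 and −0.54, mean −0.57 ± 0.11), and Lef1, a factor of naive T cells (−0.82 and −0.43, mean −0.62 ± 0.12). The activation receptors Tnfrsf4 and Tnfrsf9, from the list of regulatory T cells, had −0.52 and −0.71 (mean −0.62 ± 0.09) and −0.57 and −0.50 (mean −0.53 ± 0.09). These 5 genes had positive means with median centring alone, below the median of all genes there. Against the list, the interleukin 7 receptor Il7r had 0.64 and 0.49 (mean 0.57 ± 0.10, adjusted p = 0.00653), although both of its 2 other probes had the opposite sign. The call of Il7r was lost with the mean of its probes. Of the 5 T cell markers counted above background earlier, Thy1 alone was called, and not all of the others were negative. Without replicate 1, 0 of the 24 T cell genes were called, and without replicate 2, 6 were lower and 1 higher. Tnfrsf9 lost its call without replicate 1, and Tnfrsf4 kept its call without either 4-week array. Cytotoxic and natural killer cell genes had 6 falls among 17 (35.3%, against 7.38% of all genes), 0 rises and a median of −0.32, which was 0.24 with median centring alone, and 0 were called without replicate 1.

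Some B cell genes rose. Of 18 tested 5 were higher (27.8%, against 15.3% of all genes), 0 lower and 13 not called, with a median of 0.30 that stayed at 0.28 or more above that of all genes with the other scalings. Pax5, the factor that holds B cell identity, had 1.48 and 0.91 (mean 1.20 ± 0.21, adjusted p = 0.0058). The adaptor Bank1 had 0.83 and 0.83 (± 0.13), and Cr2, the complement receptor shared with follicular dendritic cells, 0.81 and 0.63 (mean 0.72 ± 0.14). Cd79a and Cd79b, both signalling chains of the B cell receptor and named after their values were seen, had means of −0.20 and −0.06 (0.20 and 0.86 with median centring alone) and were not called. Another Bank1 probe, above background, had 0.40 and 0.12, and further probes of Pax5 and Cr2, not above background, had means of 0.10 and 0.07. The calls of Pax5, Bank1 and Cr2 were lost without replicate 1, where 0 of the 18 were called. Of 11 germinal centre genes 2 were higher (18.2%, against 15.3% of all genes), 1 lower (9.09%) and 8 not called, with a median of 0.45. Among 26 genes of cell division 4 were higher (15.4%) and 1 lower (3.85%), with a median of 0.05, near the share of rises among all genes (15.3%). The proliferation marker Mki67 had 1.53 and 0.79 and the replication helicase subunit Mcm4 1.03 and 0.81 (mean 0.92 ± 0.10), while the cyclin Ccne1 had −0.70 and −0.65 (mean −0.67 ± 0.10, but 0.22 with median centring alone). Mki67 and Ccne1 lost their call without replicate 1.

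Calls among macrophage genes were about as frequent as among all genes. The mannose receptor Mrc1 had 1.07 and 0.81 (mean 0.94 ± 0.19) and Adgre1, a surface marker of mature macrophages, 0.76 and 0.64 (mean 0.70 ± 0.15), while Siglec1, the lectin of subcapsular sinus macrophages, had −0.57 and −0.37 (mean −0.47 ± 0.09, 0.33 with median centring alone). Of 19 macrophage genes 3 were higher (15.8%, against 15.3% of all genes) and 2 lower (10.5%, against 7.38%), and 0 were called without replicate 1. Their median of 0.10 turned to −0.06 with the scanner's processed signals, −0.05 with plain subtraction and −0.02 with the correction for probe GC content. F13a1, a clotting factor made by monocytes and macrophages, had 1.25 and 0.64, and the monocyte chemokine receptor Ccr2 1.00 and 0.41. Of 25 paired receptors of myeloid cells 6 were higher (24%) and 3 lower (12%). Pira1, an activating immunoglobulin-like receptor above background in the pool on 1 array, had 2.36 and 1.17, and its relative Lilra6 0.98 and 0.93 (mean 0.95 ± 0.09, adjusted p = 0.000517), in a family of near-identical genes whose members these probes may not tell apart; the Pira1 probe also lists an accession of Pira2. Lilra6 kept its call without replicate 1, while Mrc1, Adgre1, Siglec1, F13a1, Ccr2 and Pira1 did not. The call of Adgre1 was also lost without replicate 2, and that of Siglec1 with the mean of its probes.

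Some genes of antigen presentation were called. Cathepsin S (Ctss), the protease that clears the class II groove, had 0.98 and 1.00 (mean 0.99 ± 0.08, adjusted p = 0.000463) and was the 1 gene called among 12 of MHC class II. In the class I list 4 of 15 were higher (26.7%, against 15.3% of all genes), 0 lower and 11 not called. They were the peptide trimmer Erap1 (0.94 and 0.84), the chaperones Canx (0.88 and 0.85) and Pdia3 (0.60 and 0.40), and the light chain B2m (1.03 and 0.59). The list's median was nonetheless −0.20, and 0.71 with median centring alone, since 9 members had the same negative sign on both arrays. In the list of heat shock proteins and chaperones 3 of 15 were higher (20%), 0 lower and 12 not called. The rises were the endoplasmic reticulum chaperones Hsp90b1, with 1.21 and 0.92 (mean 1.07 ± 0.12), and Hspa5, with 0.83 and 0.67 (mean 0.75 ± 0.18), and Hspa4 of the cytosol (mean 0.42). The call of Hspa4 was lost without either 4-week array. Of 29 interferon-response genes 5 were higher (17.2%) and 2 lower (6.9%), shares near those of all genes (15.3% and 7.38%). Among these calls were the GTPase Gbp3 (1.28 and 1.00) and the RNA sensor Ifih1 (0.83 and 0.77), against Stat2 (−0.56 and −0.28, 0.42 with median centring alone), a carrier of the interferon signal. The calls of Pdia3, Hspa5, Ifih1 and Stat2 were lost without replicate 1, and that of Hspa5 also without replicate 2.

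Messages for splicing factors had the largest share of called genes among the 43 lists. Of 32 tested 22 were higher (68.8%, against 15.3% of all genes), 1 lower and 9 not called, with a median of 0.55, 0.63 on replicate 1 and 0.46 on replicate 2. Srsf11 had 1.59 and 1.56 (mean 1.58 ± 0.11, adjusted p = 0.000415), with another probe above background at 0.45 and 0.29, Hnrnph1 1.16 and 1.06 (mean 1.11 ± 0.07), Luc7l3 1.25 and 1.03 (mean 1.14 ± 0.11) and the helicase Ddx5 0.95 and 1.00 (mean 0.98 ± 0.08). The exception was Hnrnpl, with −1.14 and −0.69 (mean −0.91 ± 0.12, lost without replicate 1). Its mean was −0.01 with median centring alone, where its call was lost too. Outside the list, the splicing-associated protein Pnn had 1.29 and 1.21 (mean 1.25 ± 0.08) and the RNA-binding protein Rbm7 1.05 and 1.10 (mean 1.07 ± 0.07). Without replicate 1, 8 of the 32 were called higher and 0 lower. The median of the list was 0.06 at 12 weeks and 0.18 at 30 weeks, and 14 and 15 members were higher at 4 weeks than at these ages. The probes of the list had a median GC content of 38.3%, equal to that of all genes called higher, against 43.3% for all genes tested and 45% for genes called lower. The part of probe composition in these rises was not tested beyond a correction of the ratios for probe GC content on each array, after which 17 of the 32 were higher and 1 lower, with a median of 0.48. Of 30 ribosomal protein genes 5 were higher and 0 lower, with medians of 0.30 and −0.04 on replicates 1 and 2 and 0 called without replicate 1, and of 32 genes of oxidative phosphorylation 2 were higher and 2 lower.

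**Figure D3:**
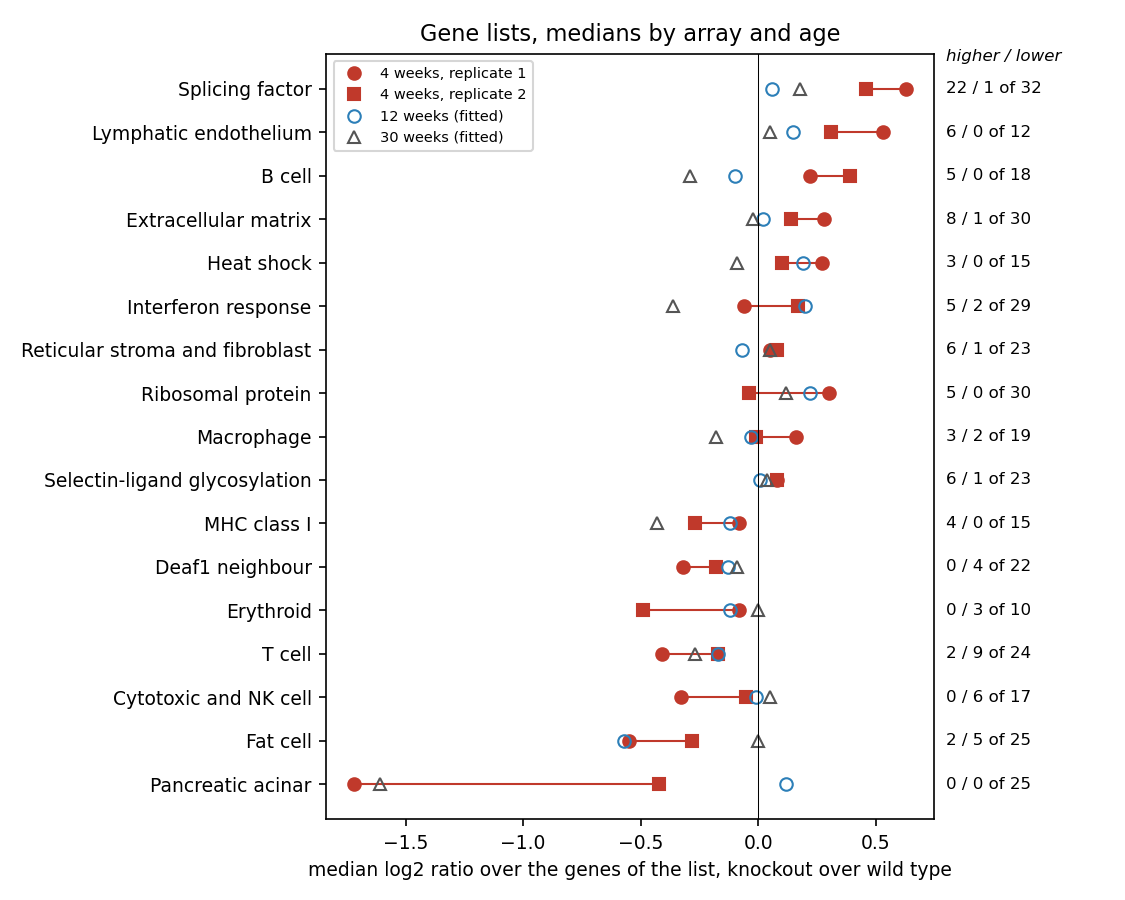
Median log2 ratio of knockout over wild type for 17 gene lists, with filled red symbols for replicates 1 (circle) and 2 (square) of 4 weeks and open symbols for the fitted values of 12 weeks (blue circle) and 30 weeks (grey triangle); the columns at the right give how many genes were called higher and lower at 4 weeks. Splicing factors (0.63 and 0.46) lie highest and pancreatic acinar genes (−1.72 and −0.42) lowest; with median centring alone the lists of T cell, cytotoxic cell, erythroid, Deaf1 neighbour and MHC class I genes change sign.

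Pancreatic acinar genes, which encode digestive enzymes and secretory proteins, had mostly negative ratios. Of 25 tested, 21 had the same negative sign on both arrays and 2 a positive one. Their median was −1.72 on replicate 1 and −0.42 on replicate 2. In the fit over all ages 0 of 25 were called, 4 weeks against 0, with standard errors of up to 2.22 for Amy1, because the fit pools the spread with that of the 30-week arrays, where Sycn for example ranged from −4.90 to 4.14. With the 4-week arrays alone 16 were lower and 1 higher, and without replicate 2 of 30 weeks 12 and 1. Examples chosen after their values were seen are Sycn (−3.41 and −1.41), Ctrc (−3.20 and −1.62), Cpa1 (−2.93 and −1.0) and Pnlip (−2.42 and −1.0), all above background in every channel. Replicate 1 was lower than replicate 2 in each of these. Of 17 plasma-protein genes of the liver on the array, 7 passed the filter on dim probes and 3 of these were lower (42.9%, against 7.38% of all genes). Only 3 of the 7 were well above background in 1 channel on both 4-week arrays. Without the filter 5 of 17 were lower, against 1327 of 27597 genes. Of the 3 called with the filter, albumin (Alb) had −1.71 and −0.47 and was not above background in either knockout. On the mean of both arrays Alb was at least 2.13-fold lower, a fold not reached on replicate 2 alone. Ahsg had −1.54 and −0.55, and the iron carrier Trf −1.02 and −0.64. These 3 calls were lost without replicate 1. Of 2 hepatocyte markers 1 exceeded background in the pool and 0 in the knockout on each array.

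Most fat cell genes had lower ratios, apart from a pair of genes of fatty acid uptake. Of 25 tested 19 had the same negative sign on both arrays, 5 were lower (20%, against 7.38% of all genes), 2 higher and 18 not called, with a median of −0.41. The triglyceride-making enzyme Dgat2 had −1.46 and −1.19 (mean −1.33 ± 0.22, adjusted p = 0.00473), the glycerol phosphate enzyme Gpd1 −1.80 and −1.05 (mean −1.42 ± 0.36), and the lipid droplet proteins Cidec and Plin4 −1.94 and −1.16 and −2.17 and −1.10. The hormone gene Adipoq, named after its values were seen, had −1.73 and −1.16 and was not called (adjusted p = 0.0631). In contrast, lipoprotein lipase Lpl had 1.74 and 1.08 (mean 1.41 ± 0.24, adjusted p = 0.00497) and the fatty acid receptor Cd36 1.26 and 0.99 (mean 1.13 ± 0.14, adjusted p = 0.0013). Another probe, above background, had 0.17 and 0.07 for Lpl and 0.64 and 0.55 for Cd36. Other cells of the node, such as macrophages and endothelium, are also known to make both. With the 4-week arrays alone 13 of the 25 were lower and 2 higher. Without replicate 1, 0 of the 25 were called, and the calls of Gpd1, Cidec and Plin4 were also lost without replicate 2. Plin4 lost its call without replicate 1 of 12 weeks too, and Plin4 and Cidec without replicates 1 or 3 of 30 weeks.

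Several genes of red-cell precursors were lower as well. Slc4a1, the anion exchanger of the red cell membrane, had −1.08 and −1.35 (mean −1.22 ± 0.25, adjusted p = 0.0118), and Alas2, which starts haem synthesis in these cells, −1.16 and −0.96 (mean −1.06 ± 0.22). Klf1, the transcription factor of the red-cell lineage, had −0.78 and −0.80 (mean −0.79 ± 0.23, adjusted p = 0.042). Outside the list, Rhd, a blood group protein, had −1.07 and −1.39 (mean −1.23 ± 0.31), Tspo2, a protein of late red-cell precursors, −1.12 and −1.14 (mean −1.13 ± 0.14, adjusted p = 0.00134), and Alad, the next enzyme of haem synthesis, −0.81 and −0.91 (mean −0.86 ± 0.09). The haemoglobin genes Hba-a1 and Hbb-bt, named after their values were seen, had −0.30 and −0.83 and −0.48 and −0.94, and were not called (0.37 and 0.22 with median centring alone). Of the 10 genes of the list 3 were lower (30%, against 7.38% of all genes), 0 higher and 7 not called, with a median of −0.26 that turned to 0.30 with median centring alone, 0.19 below all genes there. The calls of Slc4a1, Alas2, Klf1 and Rhd were lost without either 4-week array, that of Klf1 also without any of the 30-week arrays. Tspo2 and Alad kept theirs, although Alad had a mean of 0.03 with median centring alone.

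**Figure D4:**
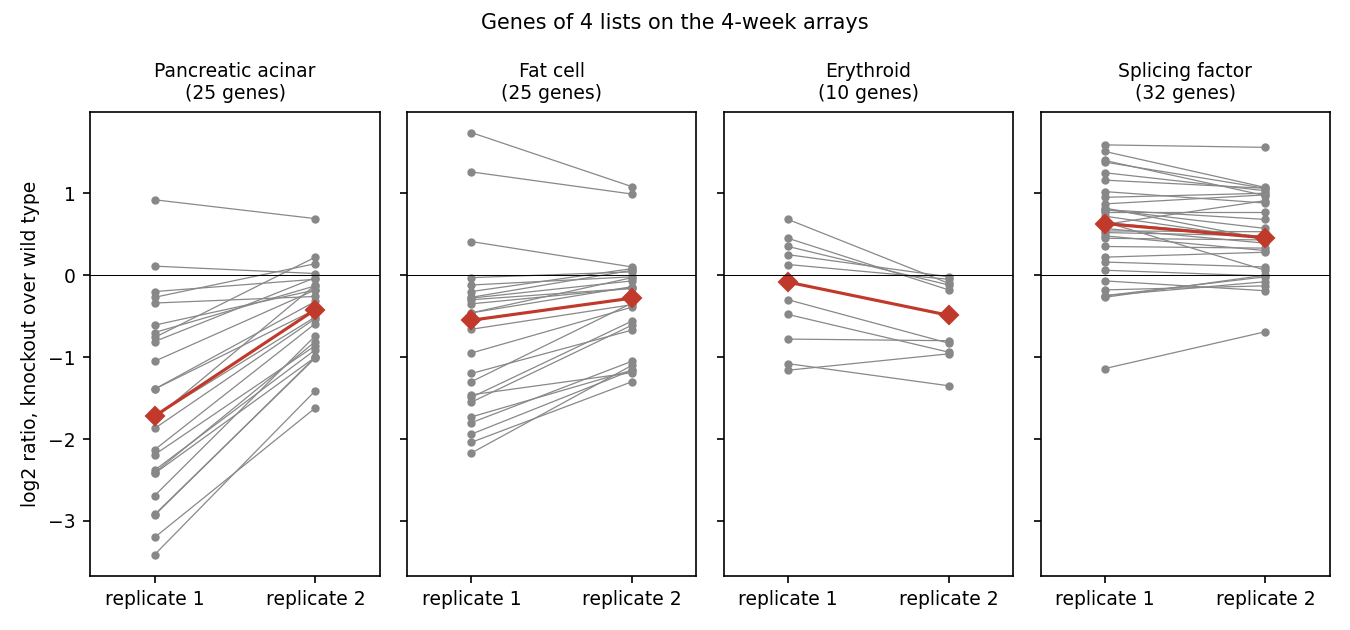
Log2 ratio of knockout over wild type on replicate 1 and replicate 2 of 4 weeks for the genes of 4 lists, each gene a grey line and the median a red diamond. Acinar genes (medians −1.72 and −0.42) and fat cell genes (−0.55 and −0.28) lie further below 0 on replicate 1, red-cell genes (−0.08 and −0.49) on replicate 2, and splicing factors (0.63 and 0.46) lie near each other; with median centring alone the median of the red-cell list is above 0.

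The lowest single gene was Dct, an enzyme of melanin synthesis in pigment cells, on chromosome 14 at 116895169 to 116895229. Its pool channel was above background on both arrays and its knockout channel on neither (fitted −4.71 and −1.85). On the mean of both arrays this probe was at least 9.73-fold lower, a fold not reached on replicate 2 alone. Another Dct probe, above background, had −2.08 and −0.47, also short of that fold. At the other ages its ratios lay between −0.23 and 0.15. Of 9 melanocyte genes tested 2 were lower and 1 higher, with a median of 0.11, so the list did not follow Dct. Cd207, langerin of Langerhans cells and other dendritic cells, had −2.83 and −1.36 (mean −2.09 ± 0.57), a call lost without either 4-week array or without replicate 3 of 30 weeks. The T cell receptor gene Tcra had −0.93 and −2.89; it was not called without replicate 2, and only 1 of its 2 other probes had the same sign. Scg5, a chaperone of hormone processing, had −2.15 and −1.45 (mean −1.80 ± 0.27), whereas Chga and Pcsk1n of the same neuroendocrine list, named after their values were seen, had means of −0.04 and −0.11. The signalling adaptor Dok2 had −1.63 on both arrays, the peptidase-like protein Cpxm1 −1.06 and −1.61 (mean −1.34 ± 0.18, adjusted p = 0.00182), the amino acid transporter Slc7a5 −1.54 and −1.01 (mean −1.28 ± 0.14), the clock factor Dbp −1.16 and −1.18 and the eosinophil chemokine Ccl24 −1.44 and −0.84. Scg5, Dok2, Dbp and Ccl24 lost their call without replicate 1, and Dok2 and Dbp also without replicate 2.

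In a further group of genes the 4-week arrays did not overlap those of the other ages and mostly had the opposite sign. They were chosen for that difference, against a background of 4.3% of genes higher and 1.04% lower than at both ages. Adat2, a tRNA-editing enzyme, had 1.64 and 1.26 at 4 weeks and −1.18 to −0.14 later, a difference of 2.18 from 12 weeks (adjusted p = 0.00678) and of 2.01 from 30 weeks (adjusted p = 0.00356). Capza2, which caps actin filaments, had 1.01 and 0.99 against −0.81 to −0.27, with differences of 1.36 and 1.69 (another probe, not above background, had 0.22 and 0.19 at 4 weeks). For Cd36 the arrays of the later ages lay between −0.57 and 0.01, and for F13a1 between −0.88 and −0.12. Ptn, the growth factor pleiotrophin, had 0.34 and 0.55 at 4 weeks against −1.20 to −0.66. Srp54a, of the signal recognition particle, had 1.33 and 1.06 against −1.0 to 0.18. In the opposite direction, the splicing helicase Aqr had −0.77 and −0.93 against 0.46 to 1.13, the RNA component Rmrp of an RNA-processing enzyme −0.93 and −0.53 against 0.52 to 1.01, and H60, a stress ligand for the killer cell receptor NKG2D, −0.70 and −0.42 against 0.59 to 1.78. H60 was not called at 4 weeks itself (adjusted p = 0.118), and with median centring alone H60 and Rmrp had 4-week means of 0.26 and 0.14. Cnot3, a subunit of the deadenylase complex, had −1.27 and −0.97 against −0.27 to 0.33. The 4-week calls of Adat2, Srp54a, Cd36, Ptn, F13a1, Aqr and Rmrp were lost without replicate 1. That of Ptn was also lost without replicate 2 or any of the 30-week arrays, and that of Aqr with the mean of its probes. Of the 2 other Aqr probes, the one above background had 0.14 and −0.03 at 4 weeks and so showed no such fall. The one not above background had −0.23 and −0.03.

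Calls in the remaining lists are to be read against 15.3% higher and 7.38% lower among all genes. Of 20 dendritic cell genes 2 were higher and 2 lower, in 13 of regulatory T cells 3 and 2, in 14 of plasma cells 3 and 0 and in 29 chemokines and their receptors 3 and 4. Genes of keratinised epithelium (1 and 1 of 16), gut (0 and 1 of 8), nerve (0 and 1 of 10), muscle (0 and 1 of 11) and immediate early response (2 and 1 of 23) showed few calls, and among glucocorticoid targets 0 of 11 were higher and 1 lower.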

How the data were processed

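Gene expression in pancreatic lymph nodes was measured on 2-colour Agilent arrays, knockout RNA in Cy5 and the wild-type pool in Cy3. The deposited scanner files hold spot intensity and background intensity in both channels, a log10 ratio of Cy5 over Cy3 and flags, per the file headers. The series matrix deposited by the authors holds a log2 ratio per probe, with its centring not stated. Amplification and labelling are those of the labels' protocols.

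From the mean signals and background medians of both channels, ratios were computed with limma 3.58.1 in R 4.3.3: normexp background correction (offset 50), loess within each array with control spots at weight 0, outlier-flagged spots left out, spots of a probe averaged. A probe was kept if 1 of its channels stood well above background on every array of 1 age or more (27464 of 41174), and the brightest probe stood for its gene. Each age had its mean in 1 model over 8 arrays, tested with moderated statistics and Benjamini-Hochberg adjustment over 18410 genes. Where all probes of a gene had a channel not well above background on both 4-week arrays, the fold is a bound for their mean. It sets the bright group's mean against the higher of the lowest signal well above background and the dim probe's own. A single array can give less. The procedure was tested on simulated data. Probe positions are those of the 4-week files (mm8); promoters are RefSeq's (GRCm38.p6), from a table of gene starts.

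The genes of the 4-week comparison, the 43 gene lists and the tests were chosen with earlier results of these data known. Named were Deaf1, Aire and Eif4g3, the 25 largest rises and falls, the 10 smallest p-values and the 10 largest differences from both other ages in each direction, up to 4 members of each list in each direction, and the 5 genes whose replicates lay closest; not all are described, 1 result is not reported here, and rows named only by an accession were left out. The comparison with further probes of a gene was added after the data were seen. Alternatives covered the background correction, scaling, filter, choice of probe, probe GC content, deposited values, blocks and each array left out.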

Additional observations from a re-analysis of the deposited data

Results flagged for a closer look

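The genes given here are those described above whose log2 ratio differed between 4 weeks and both other ages in the same direction, each contrast with an adjusted p under 0.05 in the limma fit over 8 arrays. Of 126 genes, 39 were higher at 4 weeks and 13 lower, against 4.3% and 1.04% of all genes; up to 10 in each direction had been named because they differed from both ages, so these counts show nothing by themselves. For each the smaller of both differences is given. Age, wild-type pool, slide, scanner and software version cannot be told apart in these differences, and without replicate 1 of 4 weeks 1 gene of all those tested was called against 12 weeks.

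Among genes of stroma and endothelium the smaller difference was 1.48 for Postn, 1.52 for Lyve1, 1.22 for Enpp2, 0.97 for Dcn, 0.89 for Ogn, 0.88 for Lum, 0.78 for Pdgfra and 0.63 for Prox1. Among the largest rises it was 2.68 for Erdr1, 1.25 for Adam33, 1.13 for Tmem106b, 1.12 for Chrdl1, 1.00 for Smchd1, 0.85 for Npm1 and 0.85 for Selenop. Genes of RNA processing had 1.15 for Pnn, 1.10 for Srsf11, 1.09 for Rbm7, 0.94 for Luc7l3, 0.73 for Hnrnph1 and 0.71 for Ddx5.

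Immune genes and those of antigen presentation had 0.95 for Il7r, 0.93 for Canx, 0.82 for Gbp3, 0.81 for Bank1, 0.68 for Pdia3, 0.62 for B2m, 0.56 for Ifih1, 0.54 for Sp100, 0.51 for Lilra6, 0.41 for Ctss and 0.39 for Erap1. The chaperone Hsp90b1 had 1.04. Genes with mostly opposite signs at the other ages had 2.01 for Adat2, 1.41 for Cd36, 1.41 for Srp54a, 1.36 for Capza2, 1.36 for F13a1 and 1.35 for Ptn.

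Lower at 4 weeks were Dct by −3.21, Scg5 by −1.82, H60 by −1.54, Aqr by −1.49, Rmrp by −1.36, Slc7a5 by −1.09, Tspo2 by −1.09, Cnot3 by −0.99, Ccne1 by −0.64, Tnfrsf4 by −0.63, Tnfrsf9 by −0.62, Stat2 by −0.61 and Alad by −0.54.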

How the results depend on the processing

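At 4 weeks 2821 genes were higher and 1358 lower. Rises numbered 9361 with median centring alone. Falls numbered 388 there, 2892 with the scanner's processed signals, 2892 with the series matrix values, 4050 with plain background subtraction and 2530 with the slide as a random block. Leaving out 1 array at a time gave 452 to 3314 rises and 47 to 1864 falls, the lowest without replicate 1 of 4 weeks. The 1285 genes that differed from 12 weeks numbered 2191 with processed signals, 2195 with matrix values, 4226 with plain subtraction, 4480 with the random block, 792 with the mean of probes and 51 with median centring alone, and 1 to 1769 with 1 array left out. The 3466 that differed from 30 weeks numbered 5717 with plain subtraction and 6015 with the random block, and 608 to 4582 with 1 array left out. The causes were not tested. With the replicate number as a block 2541 rose and 1123 fell, 359 differed from 12 and 2138 from 30 weeks, and 227 and 2071 with GC correction too. Arrays of 1 number had correlations of −0.08 to 0.24 in their deviations, so the numbers were not taken to pair them. With median centring alone means turned positive for Deaf1 (0.39), Aire (0.38), Ski (0.42), Cd151 (0.44), Hras (0.40), Polr2l (0.61), Thy1 (0.22), Cd8b1 (0.35), Lef1 (0.29), Tnfrsf4 (0.28), Tnfrsf9 (0.03), Cd79a (0.20), Cd79b (0.86), Ccne1 (0.22), Siglec1 (0.33), Stat2 (0.42), Alad (0.03), Hba-a1 (0.37), Hbb-bt (0.22), Pcsk1n (0.19), Rmrp (0.14), H60 (0.26), Eif4e2 (0.60), Ccl19 (0.54) and Pdgfrb (0.64). Pcsk1n turned to 0.02 and Flt4 to −0.04 with GC correction, with and without the block, and Cd79b had 0.02 and −0.15 without replicates 1 and 2 of 4 weeks. Probes above background were fewest on replicate 2 of 4 weeks, which limits what dim genes show there.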
